A study of Homo sapiens with 6 samples.

Results

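The subject is HMOX1 and 8 further genes of the NRF2 antioxidant pathway: NQO1, SRXN1, TXNRD1, GCLM, GCLC, NFE2L2, KEAP1 and BACH1. The 9 genes were taken by name from a deposited count table of 58735 genes, and all 9 were among the 14960 genes with enough reads to be tested. The table holds 6 libraries of poly(A)-selected RNA from Panc-1, an epithelial line from a human pancreatic cancer labelled as wild type. In 3 of them the cells had shared a culture for 72 h with cancer-associated fibroblasts (CAF) engineered to overexpress PAI-1, which inhibits plasminogen activators (CAF-PAI-1 below). In the other 3 they had spent 72 h with CAF not labelled as overexpressing it. The columns of this second group are headed CAF-NC, and NC is not explained in the sources used here. The comparison asks which Panc-1 genes differ when the fibroblast partner overexpresses PAI-1. The vector, the origin of the CAF and the way both cell types were kept or separated are not given in the sources used here.

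NRF2, encoded by NFE2L2, is a transcription factor that switches on genes of antioxidant defence. KEAP1 holds NRF2 in the cytoplasm and passes it to a ubiquitin ligase, so that NRF2 is short-lived until oxidants or electrophiles modify KEAP1. Freed NRF2 pairs with a small MAF protein at antioxidant response elements (ARE), and BACH1, which binds haem, occupies many of the same elements as a repressor. NRF2 is controlled largely through its protein, which RNA sequencing does not measure. In pancreatic cancer cells the pathway is known as a source of tolerance to oxidative stress and to drugs.

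HMOX1 and SRXN1 rose, BACH1, GCLM, GCLC and NFE2L2 rose by smaller amounts, and NQO1, TXNRD1 and KEAP1 did not pass the test. HMOX1, haem oxygenase 1, was 3.60-fold higher with CAF-PAI-1, and SRXN1, sulfiredoxin, was 2.19-fold higher. The other 4 genes that rose were between 1.17-fold and 1.40-fold higher. In all, 6 of 9 genes rose and 0 fell (edgeR quasi-likelihood test, Benjamini-Hochberg adjusted p under 0.05 over all genes tested). By the same test 32.2% of all genes tested changed, 17.2% higher and 15.0% lower, and 1.33% rose at least 2-fold. The groups did not overlap for 6 of the 9 genes, against 43.4% of all genes tested. Scaling by library size alone gave 1839 genes higher and 3182 lower in place of 2571 and 2239, and 6 of the 9 genes rose there too. The median log2 fold change of the 9 genes was 0.31, against -0.0015 over all genes tested.

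**Figure D1:**
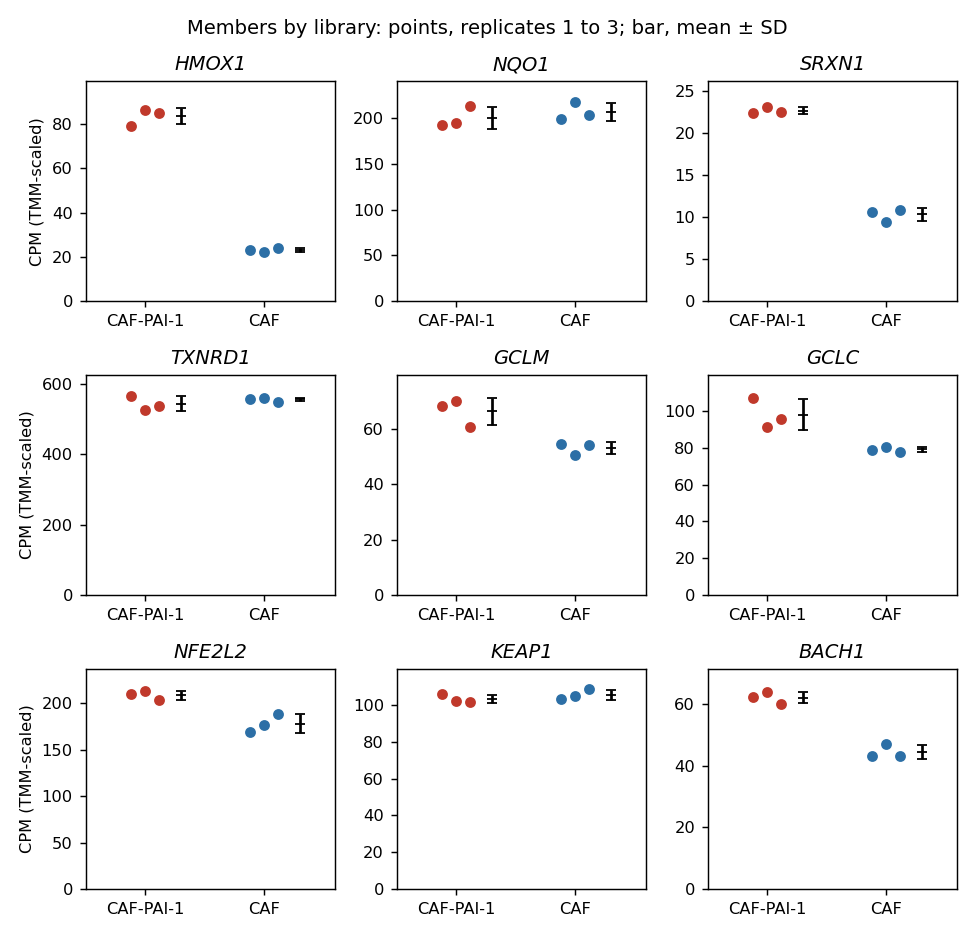
CPM of the 9 genes in each library (vertical axes from 0; CAF-PAI-1 red, CAF blue; points are replicates 1 to 3, the bar is mean ± SD). HMOX1 and SRXN1 stand clear of their CAF levels, while NQO1, TXNRD1 and KEAP1 overlap between groups.

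Sequence upstream of the RefSeq start sites is shown because the ARE is the element through which NRF2 and BACH1 are known to act. RefSeq start sites on GRCh38.p14 were found for 8 of the 9 genes, all but HMOX1, with 13 windows of 250 bases upstream. The ARE core TGACNNNGC, searched on both strands, was in 4 of the 13 windows, which belong to TXNRD1, GCLM and KEAP1. Of 35116 such windows over all RefSeq genes, 10.9% held it. The AP-1 motif TGANTCA, also searched on both strands, was in 1 window, of BACH1, against 6.57% of all windows, and no window of the 8 genes held both motifs. The matches are shown 5′ to 3′ on the gene's strand with 10 bases on each side, and capitals mark the match. Of the 2 TXNRD1 windows, the upstream one has its match at bases -99 to -91 from the start, and the downstream one at -102 to -94. The GCLM match is at -34 to -26, the KEAP1 matches at -54 to -46 and -31 to -23, and the BACH1 match at -48 to -42. A window upstream of one start can lie inside a transcript that begins farther upstream. By GENCODE release 29 all 250 bases of the downstream TXNRD1 window are exonic, and both KEAP1 matches and the BACH1 match also lie in exons. The GCLM match has 1 exonic base of 9, and the upstream TXNRD1 match has 0.
TXNRD1 upstream start, chr12:104215670-104215698, plus strand: acacgggctaTGACTTCGCtgttgtcacc
TXNRD1 downstream start, chr12:104286920-104286948, plus strand: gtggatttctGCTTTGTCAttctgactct
GCLM, chr1:93909446-93909474, minus strand: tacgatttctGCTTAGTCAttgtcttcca
KEAP1 first match, chr19:10502807-10502835, minus strand: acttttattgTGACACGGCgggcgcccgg
KEAP1 second match, chr19:10502784-10502812, minus strand: gcccggctctGCTTAGTCAtggtgacctg
BACH1 AP-1 motif, chr21:29298864-29298890, plus strand: gcggaaggagTGAGTCAcctgaccgct
Of the 3 genes with an ARE core in a window, GCLM rose and TXNRD1 and KEAP1 did not pass. SRXN1 rose and held neither motif in its window, which says only that these letters are absent from 250 bases. Of those bases 170 are exonic by GENCODE release 29, as are all 250 of the NQO1 window, which also held neither motif.

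The whole upstream window of the first TXNRD1 start, chr12:104215529-104215778 on the plus strand, lies outside those exons and shows the setting of its match, again in capitals.
TXNRD1: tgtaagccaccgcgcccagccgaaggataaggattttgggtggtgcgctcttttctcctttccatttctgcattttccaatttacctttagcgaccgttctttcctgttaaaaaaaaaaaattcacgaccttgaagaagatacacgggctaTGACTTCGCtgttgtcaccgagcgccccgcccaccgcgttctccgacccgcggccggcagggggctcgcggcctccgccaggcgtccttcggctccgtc

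Library totals lay between 13628508 and 16006880 counts, and 3 counts in a library correspond to at most 0.218 CPM, far below the level of any of the 9 genes. Some epithelial genes were abundant, with KRT8 and KRT18 averaging 1077 and 666 CPM and ITGB4 270.3 CPM over the 6 libraries. Outside the naming rule, KRT7, EPCAM and CDH1 were far lower, averaging 10.3, 7.58 and 1.34 CPM. Of the 8 epithelial markers 6 rose and 0 fell (75% and 0%), beside 17.2% and 15.0% of all genes tested. Only 2 rose in a test against a 1.2-fold change (glmTreat), and 4 rose with library size alone or without CAF replicate 3. The summed level of the epithelial markers was 2592 to 2838 CPM with CAF-PAI-1 and 2186 to 2310 CPM with CAF. In the list of 22 fibroblast markers, 11 stayed below 1 CPM throughout, and SFRP2 was at 0. The fibroblast list summed to 2959 to 3024 CPM with CAF-PAI-1 and 2652 to 2868 CPM with CAF, most of it VIM at 2221 CPM, with S100A4 at 251 CPM and COL1A1 at 221 CPM. S100A4 and COL1A1 rose, 18.2% of the tested fibroblast markers beside 17.2% of all genes tested, and the other 9 did not pass. A hand-picked part of the list, POSTN, FAP, LUM, DCN, PDGFRB, PDGFRA and COL1A2, summed to 9 counts with CAF-PAI-1 and 13 with CAF. Other genes of the list were well above that, outside the naming rule FBLN1 at 113 CPM, MMP2 at 49.3 CPM and COL3A1 at 5.83 CPM. Whether such reads come from Panc-1 or from CAF was not tested. For macrophages, which can express HMOX1 strongly, 13 of 14 markers stayed below 1 CPM throughout, and CD163, C1QA, C1QB, C1QC and VSIG4 were at 0. The macrophage list summed to 5.82 to 6.84 CPM with CAF-PAI-1 and 5.61 to 7.28 CPM with CAF, nearly all of it CD14 at 5.77 CPM, ahead of PTPRC at 0.215 and CD68 at 0.139 CPM. CAF-PAI-1 replicate 2 stood apart, with 3.78% of its counts from mitochondrial transcripts, against 4.76% to 5.12% in the other CAF-PAI-1 libraries and 5.53% to 5.92% in the CAF libraries. Without it the same number of the 9 genes rose, 6, and 0 fell. In bulk RNA, fewer cells that express a gene and less RNA per cell cannot be told apart.

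HMOX1 encodes the inducible enzyme that opens the haem ring to give biliverdin, carbon monoxide and iron, and is a target of both NRF2 and BACH1. It had 79.4, 86.3 and 84.9 CPM in the 3 CAF-PAI-1 libraries, against 23.1, 22.2 and 24.2 CPM in the CAF libraries. The groups lay far apart, since the lowest CAF-PAI-1 library was 3.28 times the highest CAF library. These levels rest on 1173, 1188 and 1314 counts with CAF-PAI-1 and on 381, 353 and 337 counts with CAF. The log2 fold change was 1.85 (SE 0.075, 95% interval 1.70 to 2.00, edgeR adjusted p = 1.75e-19), which placed HMOX1 at rank 9 by p and rank 30 by rise among the 14960 genes. HMOX1 (ENSG00000100292) spans, on chromosome 22 (plus strand), 35380361 to 35394214, and no other annotated gene overlaps it.

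The remaining enzymes of the haem route changed less. Of the other 25 genes of haem and iron handling, 24 were tested, 5 rose and 2 fell, with a median log2 fold change of -0.01. That is 20.8% and 8.33%, beside 17.2% and 15.0% of all genes tested. HMOX2, the constitutive haem oxygenase, rose to 60.4 ± 4.16 CPM with CAF-PAI-1, against 44.0 ± 0.96 CPM with CAF (SD, n = 3 each; log2 fold change 0.46, SE 0.072, edgeR adjusted p = 6.08e-06). TFRC, the transferrin receptor, rose by 0.24, and NCOA4, which delivers ferritin for breakdown, by 0.20 on the log2 scale. PCBP2, an iron chaperone, and PPOX, an enzyme of haem synthesis, fell by 0.18 and 0.37. Outside the naming rule, the genes of the products of haem breakdown did not move as one. BLVRB and the ferritin light chain FTL rose by 0.26 and 0.18, while BLVRA, the main biliverdin reductase, had -0.17 (95% interval -0.33 to -0.01) and the ferritin heavy chain FTH1 -0.06 (95% interval -0.17 to 0.05) and neither passed. These small changes depend on the scaling and on single libraries: with library size alone 3 rose and 5 fell, and NCOA4 and FTL no longer passed. With glmTreat against a 1.2-fold change only HMOX2 rose and 0 fell. The number that fell was 1 without CAF-PAI-1 replicate 1, without CAF-PAI-1 replicate 3 or without CAF replicate 2, and 0 without CAF replicate 3.

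SRXN1 encodes sulfiredoxin, which restores peroxiredoxins that peroxide has over-oxidised. It had 22.4, 23.2 and 22.5 CPM with CAF-PAI-1, against 10.7, 9.45 and 10.9 CPM with CAF. The CAF-PAI-1 libraries were close to each other and the lowest of them was 2.05 times the highest CAF library. The log2 fold change was 1.13 (SE 0.11, 95% interval 0.91 to 1.36, edgeR adjusted p = 5.27e-10). SRXN1 is the least counted of the 9 genes, with 319 to 348 counts per CAF-PAI-1 library and 150 to 176 per CAF library. SRXN1 (ENSG00000271303) spans, on chromosome 20 (minus strand), 646615 to 653370. It shares 2292 exonic bases with AL121758.1, a gene on the same strand with only 3 counts over the CAF-PAI-1 libraries and 8 over the CAF libraries.

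TXNRD1, the cytosolic thioredoxin reductase and a classical NRF2 target, did not pass. It had 566, 527 and 537 CPM with CAF-PAI-1, against 556, 561 and 549.7 CPM with CAF, and the groups overlapped. The log2 fold change was -0.03 (SE 0.052, edgeR adjusted p = 0.686), with a 95% interval of -0.14 to 0.07. TXNRD1 (ENSG00000198431) spans, on chromosome 12 (plus strand), 104215779 to 104350305. Among 20 further genes of the thioredoxin and peroxiredoxin system, 19 were tested, 5 rose and 0 fell (median log2 fold change 0.08). That is 26.3% and 0%, beside 17.2% and 15.0% of all genes tested, a difference that was not tested. SESN2, a stress-induced sestrin, rose by 1.08 (SE 0.075), to 77.5 ± 3.14 CPM with CAF-PAI-1 against 36.6 ± 3.53 CPM with CAF. TXNIP, the thioredoxin inhibitor, rose by 0.51 and PRDX5 by 0.29. Outside the naming rule, TXN and PRDX1 were at 0.14 and 0.11 on the log2 scale, short of the threshold. The number that fell was 4 with library size alone, 3 without CAF-PAI-1 replicate 2 and 1 without CAF replicate 1.

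GCLC and GCLM encode the catalytic and the modifier subunit of glutamate-cysteine ligase, the enzyme of the committed step of glutathione synthesis. GCLC had 107, 91.3 and 95.5 CPM with CAF-PAI-1, against 79.0, 80.7 and 77.7 CPM with CAF. GCLM had 68.2, 70.0 and 60.8 CPM with CAF-PAI-1, against 54.4, 50.6 and 54.2 CPM with CAF. Both genes were higher in every CAF-PAI-1 library than in any CAF library, though by narrow margins, with the lowest CAF-PAI-1 library at 1.13 and 1.12 times the highest CAF library. Their log2 fold changes were 0.31 (SE 0.065, edgeR adjusted p = 0.000361) for GCLC and 0.32 (SE 0.071, edgeR adjusted p = 0.000584) for GCLM. Neither passed a test against a 1.2-fold change, with glmTreat adjusted p = 0.409 and 0.357. GCLC (ENSG00000001084) spans, on chromosome 6 (minus strand), 53497341 to 53616970, and GCLM (ENSG00000023909), on chromosome 1 (minus strand), 93885205 to 93909456.

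The wider glutathione list covers cystine import, conjugation, peroxidases and export, and 27 of its 31 genes were tested. Of these 5 rose and 4 fell, which is 18.5% and 14.8%, near the 17.2% and 15.0% of all genes tested, with a median log2 fold change of -0.04. SLC3A2 and SLC7A11, which together import cystine, had 338 ± 12.4 and 82.6 ± 6.29 CPM with CAF-PAI-1, against 206 ± 0.38 and 51.1 ± 2.46 CPM with CAF (SD, n = 3 each), and both rose. CHAC1, which degrades glutathione, rose by 0.86. ABCC2 and ABCC1, exporters of conjugates, fell by 0.73 and 0.29, and GSTM4, a glutathione transferase, fell by 0.44. Outside the naming rule, GSS and GSR, which complete and recycle glutathione, had 0.08 and -0.04, and GPX4 had -0.03, none of which passed. In all, 18 of the 27 genes did not pass. The number that rose was 3 with library size alone and 3 without CAF replicate 3.

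NQO1 encodes a quinone reductase that is among the most used readouts of NRF2. It had 192, 194 and 213 CPM with CAF-PAI-1, against 199, 217 and 203 CPM with CAF, so that the groups overlapped. The log2 fold change was -0.05 (SE 0.057, 95% interval -0.16 to 0.07, edgeR adjusted p = 0.58). NQO1 (ENSG00000181019) spans, on chromosome 16 (minus strand), 69706996 to 69726951. Of 21 further genes of quinone, carbonyl and conjugation enzymes, 13 were tested, 2 rose and 3 fell (median log2 fold change -0.12). That is 15.4% and 23.1%, beside 17.2% and 15.0% of all genes tested, a difference that was not tested. OSGIN1, an oxidative stress response gene, rose to 21.0 ± 2.63 CPM with CAF-PAI-1, against 10.6 ± 1.97 CPM with CAF (log2 fold change 0.98, SE 0.13), and CBR1, a carbonyl reductase, rose by 0.61. EPHX1, AKR1B1 and TALDO1 fell by 0.26, 0.20 and 0.14. TALDO1, of the pentose phosphate route, also counts in the NADPH list below. Each of these 3 calls was lost in at least 3 of the 6 fits that left out a single library. The number that fell was 6 with library size alone, 1 with no filter on low counts and 0 with glmTreat. It was 5 without CAF-PAI-1 replicate 2 and 1 without CAF-PAI-1 replicate 1 or without CAF replicate 1. Without CAF-PAI-1 replicate 3, CAF replicate 2 or CAF replicate 3 it was 0. AKR1B10, AKR1C1, AKR1C2, AKR1C3 and ALDH3A1, which NRF2 activates in other epithelial cancers, were too low to test, at 0.18 CPM or less in either group mean.

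The next list holds 12 genes linked to the supply of NADPH, the reductant of these enzymes. Some, such as TKT, TALDO1 and MTHFD1L, do not make NADPH themselves. Of the 12 genes 2 rose and 7 fell, with a median log2 fold change of -0.23. That is 16.7% and 58.3%, beside 17.2% and 15.0% of all genes tested, a difference that was not tested. With glmTreat against a 1.2-fold change 1 rose and 3 fell. NNT, the mitochondrial transhydrogenase, had 84.0 ± 5.90 CPM with CAF-PAI-1, against 124 ± 4.18 CPM with CAF (SD, n = 3 each; log2 fold change -0.56, SE 0.063, edgeR adjusted p = 1.12e-08). IDH1, the cytosolic isocitrate dehydrogenase, fell by 0.42. The 2 genes that rose, MTHFD1L and MTHFD2, belong to mitochondrial folate metabolism and rose by 0.49 and 0.36. In the list of superoxide and peroxide enzymes, 6 of 7 genes were tested, 1 rose and 2 fell. That is 16.7% and 33.3%, and the difference from all genes was not tested. CAT, catalase, had 80.6 ± 8.74 CPM with CAF-PAI-1, against 111 ± 7.17 CPM with CAF, and fell by 0.46. PON2 fell by 0.18 and PARK7 rose by 0.15. PARK7 did not pass with library size alone, with a mean of at least 10 CPM or with glmTreat. PARK7 also did not pass without CAF-PAI-1 replicate 3, CAF replicate 1 or CAF replicate 2. PON2 did not pass with glmTreat or without CAF-PAI-1 replicate 3 or CAF replicate 2. The number that rose in this list was 0 in each setting where PARK7 did not pass, and 2 without CAF-PAI-1 replicate 2 or CAF replicate 3. It was also 2 with no filter on low counts, with limma-voom and with the replicate number as a block. SOD2 stands under 2 identifiers at the same place, of which 1 holds nearly all reads.

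**Figure D2:**
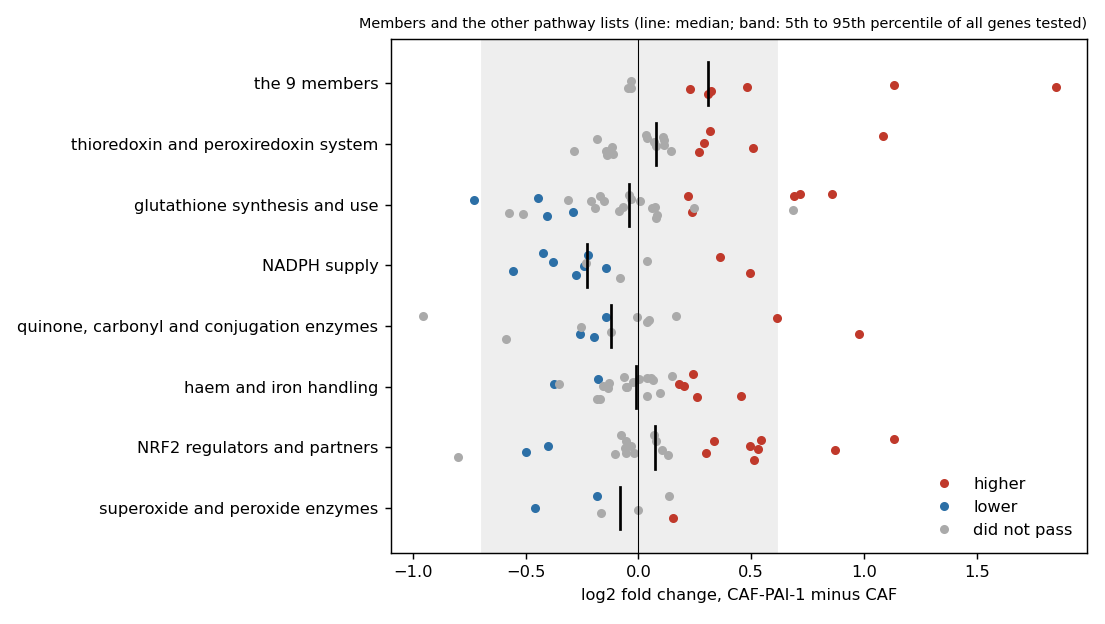
Log2 fold change (horizontal axis, CAF-PAI-1 minus CAF) of each tested gene of the 9 members and of the 7 other pathway lists. Red points rose, blue points fell, grey points did not pass, black lines are medians, and the grey band spans the 5th to 95th percentile of all genes tested, from -0.69 to 0.61. HMOX1 lies farthest to the right, and the NADPH list has its median at -0.23.

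NFE2L2 encodes NRF2 itself. It had 210, 213 and 204 CPM with CAF-PAI-1, against 169, 177 and 189 CPM with CAF. The groups did not overlap, but the lowest CAF-PAI-1 library was only 1.08 times the highest CAF library. The log2 fold change was 0.23 (SE 0.056, 95% interval 0.12 to 0.34, edgeR adjusted p = 0.00164), and the gene did not pass against a 1.2-fold change (glmTreat adjusted p = 0.969). NFE2L2 (ENSG00000116044) spans, on chromosome 2 (minus strand), 177227595 to 177392697. It shares 1054 exonic bases with AC019080.1, which had 147 counts over the CAF-PAI-1 libraries and 149 over the CAF libraries, and 54 with AGPS on the other strand, which had 4866 counts over the CAF-PAI-1 libraries and 5216 over the CAF libraries.

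KEAP1, the adaptor that targets NRF2 for degradation, had 106, 102 and 101 CPM with CAF-PAI-1, against 103, 105 and 108 CPM with CAF. These groups overlapped, and the log2 fold change was -0.03 (SE 0.059, 95% interval -0.15 to 0.09, edgeR adjusted p = 0.725). KEAP1 (ENSG00000079999) spans, on chromosome 19 (minus strand), 10486120 to 10503741. BACH1, the haem-sensing repressor, had 62.3, 63.8 and 60.1 CPM with CAF-PAI-1, against 43.0, 47.2 and 43.1 CPM with CAF. The lowest CAF-PAI-1 library was 1.27 times the highest CAF library, and the log2 fold change was 0.48 (SE 0.071, 95% interval 0.34 to 0.63, edgeR adjusted p = 1.81e-06). BACH1 and HMOX1, a gene that BACH1 is known to repress, were thus both higher. BACH1 (ENSG00000156273) spans, on chromosome 21 (plus strand), 29194071 to 29630751.

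**Figure D3:**
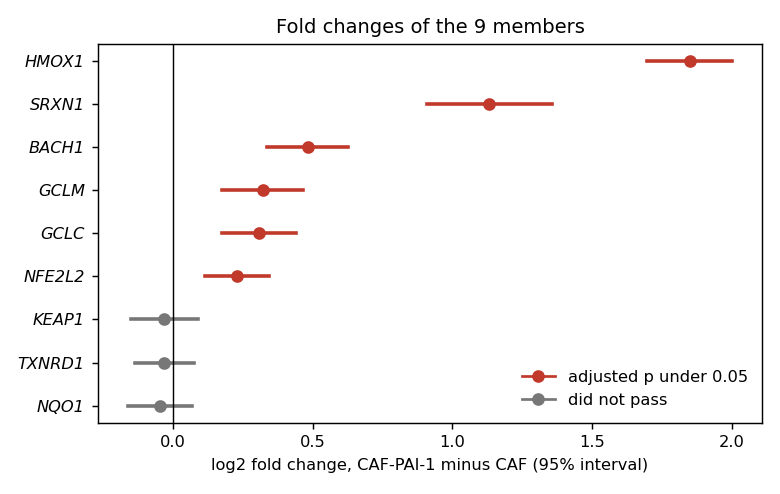
Log2 fold change of each of the 9 genes (point) with its 95% interval (line), CAF-PAI-1 minus CAF; red genes passed the edgeR test and grey genes did not. The intervals of HMOX1 and SRXN1 lie right of all others, and those of KEAP1, TXNRD1 and NQO1 span 0.

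All 22 genes of the list of partners and regulators of NRF2 were tested, and 8 rose and 2 fell. That is 36.4% and 9.09%, beside 17.2% and 15.0% of all genes tested, and the median log2 fold change was 0.07, beside -0.0015. The difference from all genes was not tested, and with glmTreat against a 1.2-fold change 5 rose and 1 fell. MAFF, a small MAF protein, had 47.7 ± 3.33 CPM with CAF-PAI-1, against 26.1 ± 1.95 CPM with CAF (SD, n = 3 each; log2 fold change 0.87, SE 0.083, edgeR adjusted p = 3.36e-10). SQSTM1, the autophagy receptor that binds KEAP1 and is itself an NRF2 target, had 1022 ± 17.0 CPM with CAF-PAI-1, against 725 ± 9.24 CPM with CAF, and rose by 0.50. CDKN1A, the p21 inhibitor, whose protein can bind NRF2, rose by 1.13. EP300 and CREBBP, acetyltransferases that act with NRF2, fell by 0.40 and 0.50. Outside the naming rule, the small MAF gene MAFK rose by 0.51, while MAFG had 0.07 and did not pass. CUL3 and RBX1, which form the ligase with KEAP1, had -0.06 and 0.13 and did not pass.

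Ratios of counts inside a library do not depend on how libraries are scaled, and 5 were formed. HMOX1 reached 0.414, 0.444 and 0.399 counts per NQO1 count with CAF-PAI-1, against 0.116, 0.103 and 0.119 with CAF, a 3.72-fold difference. SRXN1 per TXNRD1 count was 0.0418 ± 0.0022 with CAF-PAI-1 and 0.0186 ± 0.0016 with CAF (SD, n = 3 each). NFE2L2 per KEAP1 count was 1.98, 2.08 and 2.01 with CAF-PAI-1, against 1.64, 1.69 and 1.74 with CAF. BACH1 per NFE2L2 count was 0.297, 0.299 and 0.295 with CAF-PAI-1, against 0.255, 0.267 and 0.228 with CAF. In these 4 ratios the groups did not overlap, and each had an exact two-sided permutation p = 0.1, the smallest that 3 libraries against 3 allow (0.125 adjusted over the 5 ratios). HMOX1, SRXN1 and NFE2L2, which rose, were set over genes that did not pass, with earlier results of these data known. The separation in those ratios therefore restates the fold changes and is no further test. GCLM per GCLC count, in contrast, was 0.635, 0.767 and 0.636 with CAF-PAI-1, against 0.688, 0.628 and 0.697 with CAF, with overlapping groups (exact permutation p = 0.8, also 0.8 adjusted).

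**Figure D4:**
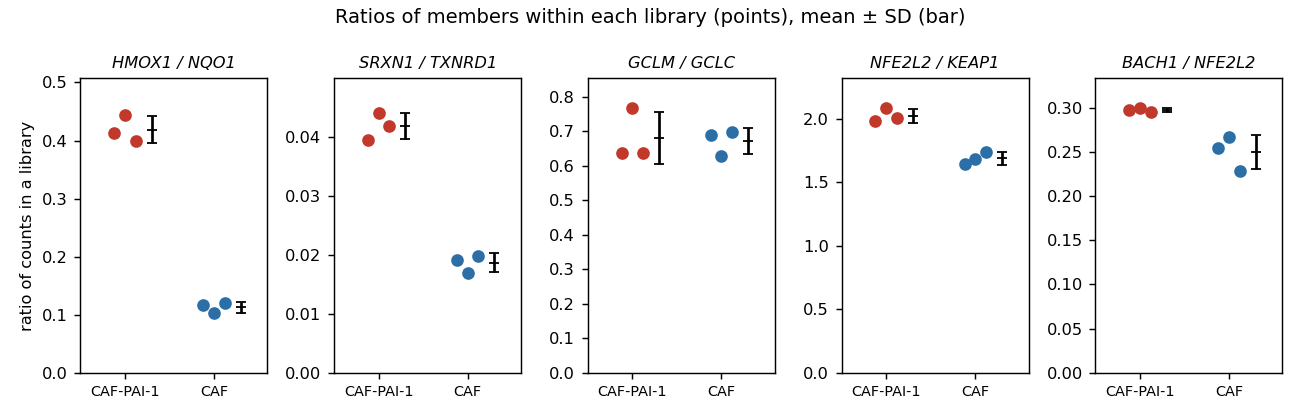
Ratio of the counts of a pair of genes in each library (vertical axes from 0; CAF-PAI-1 red, CAF blue; bar, mean ± SD). The HMOX1 to NQO1 ratio separates the groups most, and the GCLM to GCLC ratio does not separate them.

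Levels were compared between genes as CPM per kb of annotated exon. The length is the union of all annotated exons of a gene, from 2405 bases for HMOX1 to 8646 for GCLC. It can exceed the length of the transcript in use, so the order between genes depends partly on the annotation. With CAF-PAI-1 the order was TXNRD1 at 81.0, NQO1 at 61.4, NFE2L2 at 34.9, HMOX1 at 34.7, KEAP1 at 27.4, GCLM at 12.2, GCLC at 11.3, SRXN1 at 8.41 and BACH1 at 8.04 CPM per kb. Neighbours whose library ranges overlapped there were NFE2L2 with HMOX1 and GCLM with GCLC. With CAF it was TXNRD1 at 82.8, NQO1 at 63.4, NFE2L2 at 29.8, KEAP1 at 28.0, GCLM at 9.79, HMOX1 at 9.65, GCLC at 9.15, BACH1 at 5.76 and SRXN1 at 3.84 CPM per kb. Here NFE2L2 overlapped KEAP1, GCLM overlapped HMOX1, and HMOX1 overlapped GCLC. By this measure HMOX1 stood level with the subunits of glutamate-cysteine ligase in CAF co-cultures and level with NFE2L2 in CAF-PAI-1 co-cultures. The genes with the highest levels per length, TXNRD1 and NQO1, above 97.2% and 96.1% of tested genes over all 6 libraries, were among those that did not pass.

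**Figure D5:**
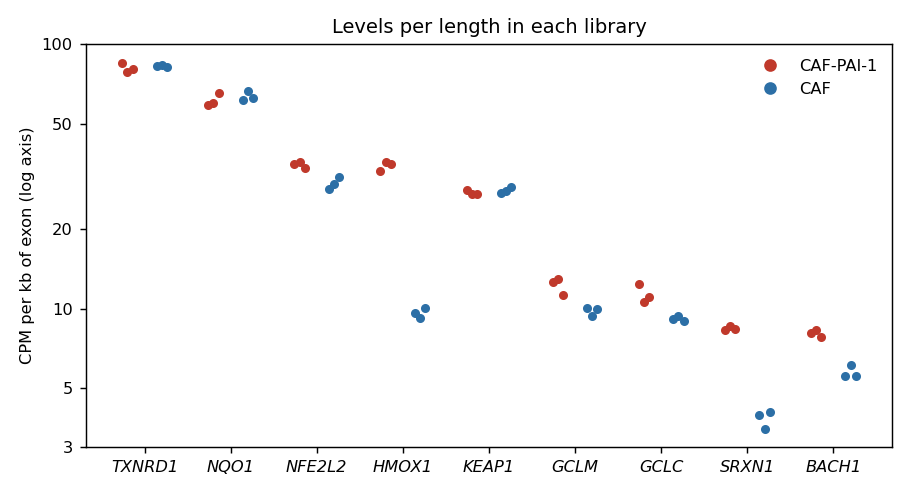
CPM per kb of annotated exon (log axis) of the 9 genes in each library, CAF-PAI-1 red and CAF blue, ordered by the CAF-PAI-1 mean. HMOX1 is the gene whose place in the order differs most between the groups.

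The genes nearest to HMOX1 in pattern over the 6 libraries, among genes of at least 5 CPM, were JUN, DUSP5, CTGF and IER2. The measure was the root mean square difference of log2 CPM after subtracting each gene's mean, which was 0.076 for JUN, 0.082 for DUSP5, 0.084 for CTGF and 0.085 for IER2. JUN, a subunit of AP-1, had 578 ± 41.1 CPM with CAF-PAI-1, against 146 ± 3.38 CPM with CAF, and DUSP5, an ERK phosphatase, had 159 ± 4.26 CPM with CAF-PAI-1, against 43.4 ± 2.50 CPM with CAF (SD, n = 3 each). Nearest to SRXN1 were NFKBIE at 0.058, SRF at 0.059, SLC20A1 at 0.060 and ERRFI1 at 0.065. None of these 8 genes belongs to the pathway lists. With 3 libraries a group, likeness in this measure is largely a like fold change.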

How the data were processed

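The authors deposited counts, whole numbers in 1 table with a row per gene and 6 library columns, and 0 further columns of sample values were left aside. Per the submitters' processing notes, hg19, RSEM, Bowtie2 and BWA were used, without roles. The step that gave whole counts and the use of strand are not given in the sources used here, so overlapping genes are uncertain. The extraction label names another line, Cal27, with Stattic or DMSO, while all other labels name Panc-1 with CAF. All 58735 identifiers are in GENCODE release 29 (GRCh38), whose coordinates serve to identify genes; 27 names differed and were restored by identifier.

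Counts were filtered with filterByExpr (minimum count 10, minimum total 15), TMM-scaled and tested with edgeR 4.0.16 in R 4.3.3 (robust quasi-likelihood, no covariates), CAF-PAI-1 minus CAF, adjusted over 14960 genes. Levels are TMM-scaled CPM, and each SE is the log2 fold change without shrinkage over the root of F. The common biological coefficient of variation was 6.06%. Whether replicates were separate cultures is not stated beyond "biological replicate", so p-values measure the spread between libraries; pairs within a group differed beyond sampling noise (chi-square per degree of freedom 2.58 to 9.51). Alternatives used DESeq2 1.42.0, limma 3.58.1 and other settings given at the end. The test was tested on simulated data. Members, lists and tests were chosen with earlier results of these data known. Named are the 9 members, up to 3 genes per direction and list with the smallest p, the 3 most abundant genes of each marker list and the 4 genes nearest in pattern to HMOX1 and to SRXN1. A result that this rule reaches is not reported here.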

Additional observations from a re-analysis of the deposited data

How the results depend on the processing

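All 15 alternatives were run. HMOX1, SRXN1 and BACH1 passed under every one, with log2 fold changes of 1.78 to 1.88, 1.07 to 1.17 and 0.42 to 0.53. NQO1, TXNRD1 and KEAP1 passed under none, with the lowest adjusted p at 0.128, 0.145 and 0.204. The number of the 9 genes that rose was 6 under 14 alternatives and 3 with glmTreat against a 1.2-fold change, where GCLC, GCLM and NFE2L2 no longer passed, as that test sets a higher bar. GlmTreat called 828 genes higher and 783 lower in all, in place of 2571 and 2239. Leaving out each library in turn kept 6 higher and 0 lower among the 9, with 2124 to 2446 genes higher and 1818 to 2227 lower in all, and HMOX1 between 1.82 and 1.88. Without CAF-PAI-1 replicate 2 the totals were 2446 and 2227.

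With the replicate number as a block, 2708 genes were higher and 2361 lower, and 6 of the 9 rose. Deviations of libraries with the same number correlated at r = 0.0023, 0.012 and 0.0063, and not every library correlated best with its own number, so the numbers were not taken as pairs.

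Counts higher or lower in the 10 other lists moved more, with glmTreat changing 13 of 20 and library size alone 6 of 20 by over 1.5 times. With glmTreat 2 thioredoxin genes rose, 3 glutathione genes rose and 1 fell, and 5 NRF2 regulators rose and 1 fell. In the NADPH list 1 rose and 3 fell, and in the haem and iron list 1 rose and 0 fell. In the quinone list 2 rose and 0 fell, and in the superoxide and peroxide list 0 rose and 1 fell. Of the 9 genes, SRXN1 rests on the fewest counts.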
